A study of Homo sapiens with 4 samples.

Results

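Ribosome biogenesis and nucleolar genes were examined in KYSE410 cells, an established line of human esophageal squamous cell carcinoma, left untreated or exposed to YM155. YM155 is a small compound known for lowering the expression of survivin. The 49 genes were listed by symbol, and each was read through the array probe sets annotated with that 1 gene symbol. Of the 49 genes, 43 had such a probe set, and all 43 passed the filter on dim signal, within 14043 genes tested. GNL3 and EBNA1BP2 had no probe set annotated with 1 symbol, and BOP1, DKC1, NOP56 and PPAN had only probe sets annotated with several, so these 6 were not measured here. The series held 4 arrays of total RNA: 2 of untreated cells and 2 of cells given 20 nM YM155 for 6 h. No genotype, vehicle or age of culture is named for either group, and the labels do not state whether the 2 arrays of a group came from separate cultures; the titles of the YM155 arrays carry the codes B1 and B2, which are not explained, and those of the untreated arrays carry none. It follows that p-values here measure array-to-array spread alone, part of which may be technical. The labels disagree on the drug: the treatment protocol of all 4 samples names cisplatin, with another dose and time, and the design text names both YM155 and cisplatin. The treatment labels, the source names, the descriptions and the series title name YM155 and were followed.

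A human ribosome is built in the nucleolus. RNA polymerase I transcribes a long precursor RNA, the small-subunit (SSU) processome folds and cuts its part into 18S ribosomal RNA, and a separate series of factors matures the large subunit with 28S, 5.8S and 5S RNA. Small nucleolar ribonucleoproteins (snoRNPs) methylate the RNA (box C/D) or convert uridines to pseudouridine (box H/ACA), and further factors carry the particles to the cytoplasm. Many genes of this pathway are textbook targets of MYC, which binds the E-box CACGTG, and their output follows growth and nutrient signalling.

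The promoters of these genes were searched for motifs. The search did not use the array values, but the genes had been chosen with earlier results of these data known. In RefSeq's promoters on GRCh38.p14, from 250 bases before to 50 bases after a transcription start, 41 of the 49 genes were matched by symbol, 8 of them with more than 1 start. The E-box CACGTG, which reads the same on both strands, stood in the promoter of 20 of 41 members (48.8%), against 12.2% of the 11203 genes tested on the arrays that had a promoter in the table and 10.9% of protein-coding genes. It was held by 11 of 18 small-subunit genes, 6 of 13 large-subunit genes and 3 of 6 snoRNP genes, and by 0 of 2 Pol I factor genes and 0 of 2 chaperone genes. Of the 23 E-boxes of members, 20 (87%) began within 50 bases of the start, against 37.8% of 1665 E-boxes in the promoters of genes tested. The TATA box TATAAA, on either strand, stood in 2 of 41 members' promoters (4.88%; 9.01% of genes tested), and the GC box GGGCGG, on either strand, in 32 (78%; 73.4%). Each motif was counted by itself, and matches of different motifs may overlap. A match is a description of these letters, not a binding site.

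The E-boxes of 7 members whose array values are given below are shown with up to 15 bases on each side, 5′ to 3′ on the gene's strand with the E-box in capitals, since they show how close the motif lies to the start. They lie at chr6:143843351-143843386 (LTV1, plus strand), chr2:28894655-28894690 (WDR43, plus), chr2:68157882-68157917 (PNO1, plus), chr12:6568242-6568271 (NOP2, minus), chr4:109815778-109815811 (GAR1, plus), chr21:44107385-44107420 (PWP2, plus) and chr19:39846353-39846388 (FBL, minus), and the first base of the E-box was base 29, 4, 10, 36, 32, 2 and 7 from the start, in that order. The first 5 genes had positive differences after YM155 and the last 2 negative ones. Of the 18 measured members with an E-box, 16 had positive differences, and PWP2 and FBL were the only others. Of the 18 with a promoter but no E-box, 15 had positive differences.
LTV1: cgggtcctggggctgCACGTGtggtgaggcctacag
WDR43: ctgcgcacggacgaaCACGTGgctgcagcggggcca
PNO1: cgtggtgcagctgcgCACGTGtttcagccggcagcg
NOP2: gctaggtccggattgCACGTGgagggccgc
GAR1: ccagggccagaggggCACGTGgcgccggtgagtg
PWP2: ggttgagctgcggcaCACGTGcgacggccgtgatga
FBL: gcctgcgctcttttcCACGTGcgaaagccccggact

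The whole promoters of the 3 members that stood at least 0.5 log2 above each untreated array are shown in the same way. That of NIP7 lies at chr16:69339522-69339821, that of BYSL at chr6:41921249-41921548 and that of UTP15 at chr5:73565493-73565792, all on the plus strand. BYSL holds 1 E-box, beginning at base 29 from the start, and NIP7 and UTP15 hold 0 in this window.
NIP7: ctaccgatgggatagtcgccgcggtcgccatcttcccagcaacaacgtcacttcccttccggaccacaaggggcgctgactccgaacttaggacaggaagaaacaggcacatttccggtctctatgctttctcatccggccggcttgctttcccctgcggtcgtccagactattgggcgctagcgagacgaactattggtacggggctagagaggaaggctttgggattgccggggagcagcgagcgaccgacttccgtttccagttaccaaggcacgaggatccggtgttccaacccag
BYSL: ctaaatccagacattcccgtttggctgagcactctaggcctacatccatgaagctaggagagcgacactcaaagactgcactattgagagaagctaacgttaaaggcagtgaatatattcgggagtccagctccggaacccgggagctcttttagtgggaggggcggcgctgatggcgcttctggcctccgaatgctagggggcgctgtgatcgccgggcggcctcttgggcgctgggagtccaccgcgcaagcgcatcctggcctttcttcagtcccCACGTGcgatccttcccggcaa
UTP15: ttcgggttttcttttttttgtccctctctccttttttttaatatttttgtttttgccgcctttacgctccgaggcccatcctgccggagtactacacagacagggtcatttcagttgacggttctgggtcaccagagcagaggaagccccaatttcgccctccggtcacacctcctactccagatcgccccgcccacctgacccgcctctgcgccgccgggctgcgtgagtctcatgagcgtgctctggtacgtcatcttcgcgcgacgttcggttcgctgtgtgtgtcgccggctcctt

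**Figure D1:**
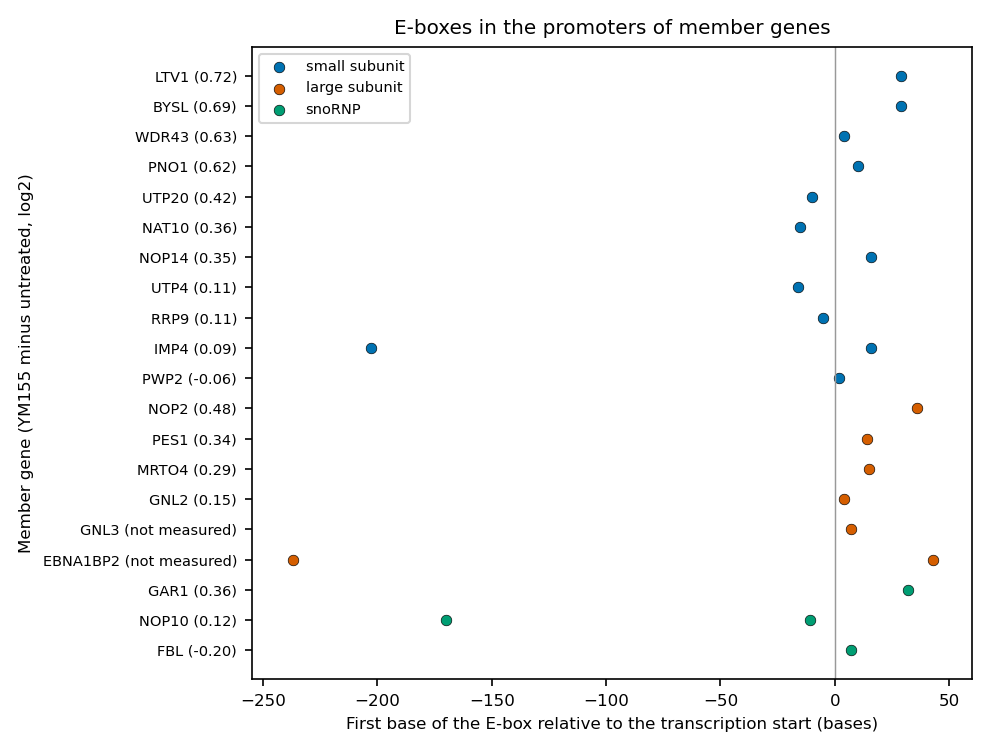
Each point is 1 CACGTG motif in the promoter of a member, placed by the distance in bases of its first base from the transcription start (line at 0), with the YM155 minus untreated log2 difference in brackets beside the gene. Of 23 motifs, 20 lie within 50 bases of the start, and 3 lie farther upstream.

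Most members had higher values in the YM155 arrays, by small amounts. Of 43 genes, 38 had a positive difference, where 47.1% of all genes tested did, and the median was 0.29 log2 (1.22-fold), where it was −0.015 for all genes tested. NIP7, a factor of large-subunit assembly, had the largest difference, 1.04 ± 0.23 log2 (SE from limma, n = 2 arrays in each group), followed by RRP15 of the large subunit (0.83 ± 0.28), UTP15 of the SSU processome (0.81 ± 0.20), RRS1 of the large subunit (0.73 ± 0.28) and LTV1 of the small subunit (0.72 ± 0.32). FBL, NOB1, WDR75, PWP2 and NPM1 had negative differences, none beyond −0.20 log2. Differences are log2 values of the YM155 mean minus the untreated mean, each relative to the rest of the array, since the arrays were set to a common distribution. Fewer cells and less RNA per cell cannot be told apart in such values, and a change shared by all genes is not measured.

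No member passed the test over all genes. By limma with Benjamini-Hochberg adjustment over 14043 genes, 0 members were called higher (background 0%) and 0 lower (0%), and the lowest adjusted p of a member was 0.206 (BYSL). At an unadjusted p under 0.05, 10 members were higher (5.23% of all genes tested were) and 0 lower (7.48%): NIP7, RRP15, NOP16 and RRP1B of the large subunit, BYSL, UTP15 and PNO1 of the small subunit, GAR1 and NOP58 of the snoRNPs and the Pol I factor gene RRN3. That count was 25 without untreated replicate 1 (17% of all genes tested), 2 without YM155 replicate 1 (1.89%) and 1 without YM155 replicate 2 (1.3%). In 26 members both YM155 arrays lay above both untreated arrays (19.3% of all genes tested), and in 2, WDR75 and PWP2, they lay below (25.6%). With 3 arrays overlap is rarer: the lower count was 4 without untreated replicate 1 (40.1% of all genes), 6 without untreated replicate 2 (47.4%) and 4 without YM155 replicate 1 (36.3%). These counts and the median describe the list and give no test of it.

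**Figure D2:**
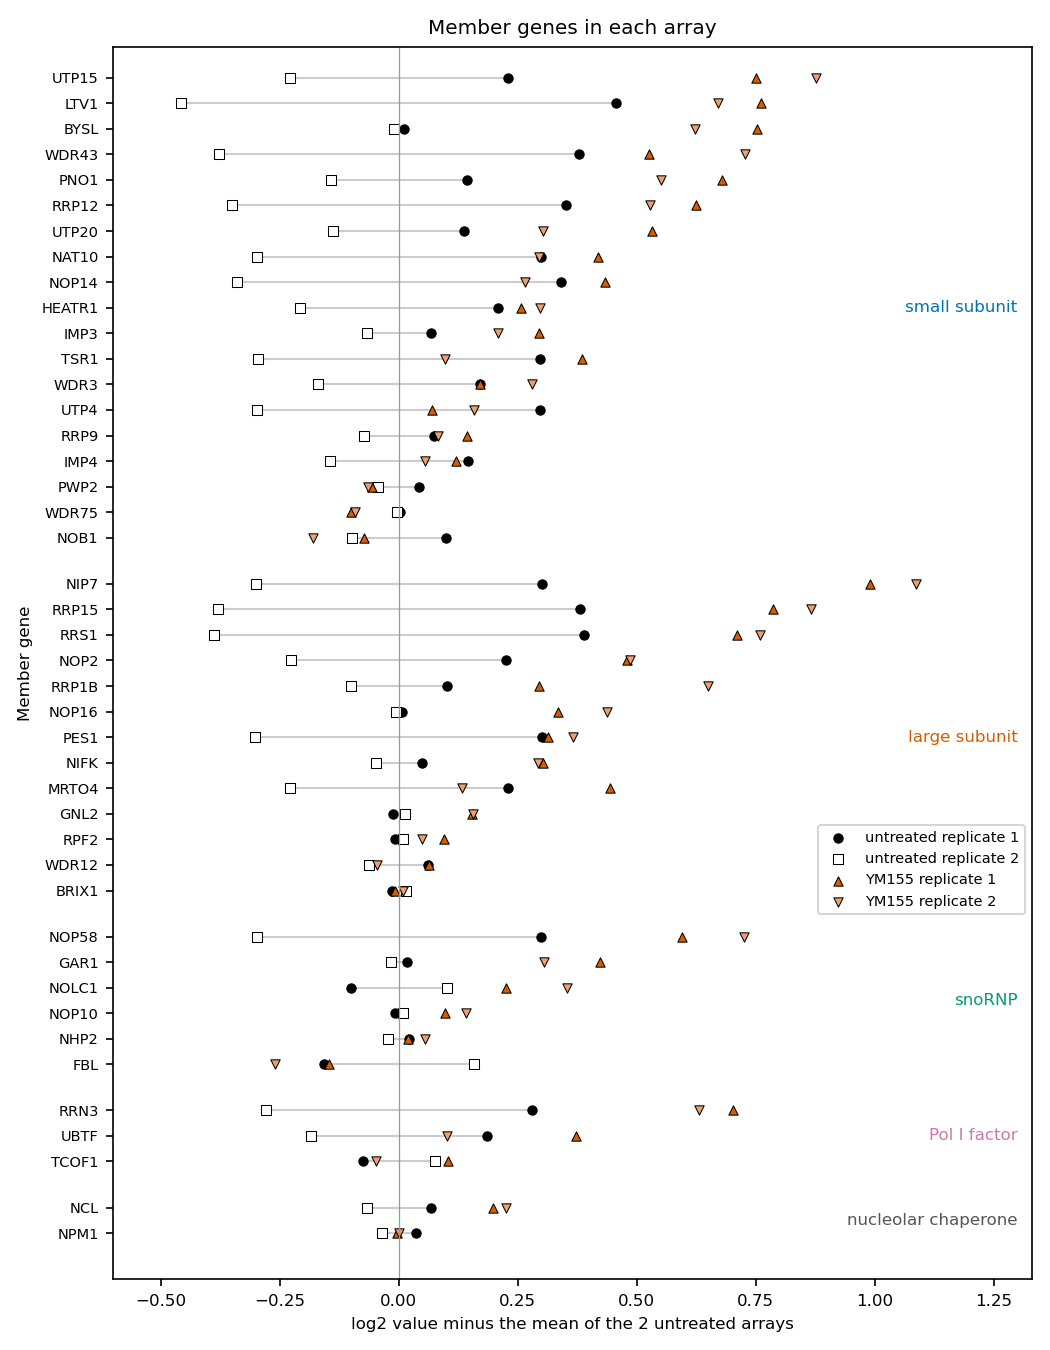
For each of the 43 measured members, the log2 value of each array minus the mean of the 2 untreated arrays, sorted within roles by the difference; circles and squares are the untreated arrays, joined by a line, and triangles the YM155 arrays. For NIP7, UTP15, BYSL and PNO1 both triangles stand well right of both untreated marks, while for NAT10, NOP14 and TSR1 they lie around untreated replicate 1.

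The untreated arrays stood apart, at these genes and over the whole array, and the size of most differences depended on which of them was the reference. Untreated replicate 2 lay below untreated replicate 1 in 36 of 43 members (54.5% of all genes tested), with a median of −0.28 log2 for replicate 2 minus 1, and in all 19 genes of the small subunit. The median absolute gap of the members was 0.29 log2 within the untreated pair and 0.096 within the YM155 pair, where over all genes tested it was 0.23 and 0.12. Over the 32768 probe sets above the filter, the untreated arrays were at least 2-fold apart at 1690 and the YM155 arrays at 56. By the same count, untreated replicate 1 stood apart from YM155 replicates 1 and 2 at 739 and 850 probe sets, fewer than from its own replicate, and untreated replicate 2 at 1811 and 2140. Against untreated replicate 1 the YM155 mean was higher in 34 of 43 members (41.8% of all genes), with a median of 0.13, and against untreated replicate 2 in 37 (51%), with a median of 0.41. A step of at least 0.5 log2 (1.41-fold) was reached by 3 members from untreated replicate 1 (4.85% of all genes) and by 19 from untreated replicate 2 (11.5%). BYSL, NIP7 and UTP15 reached it from each untreated array, 3 of 43 members where 2.39% of all genes did. Without untreated replicate 1, limma called 10 members higher and 0 lower (4.3% of all genes were called higher and 3.71% lower): LTV1, NIP7, NOP2, NOP58, RRN3, RRP12, RRP15, RRS1, UTP15 and WDR43; that fit assumes that the lone untreated array varies like the YM155 arrays. Leaving out any other single array gave 0 calls among members. The ratio of 3′ to 5′ signal of ACTB is a sign of RNA and labelling quality. It was 2.72 and 2.18 log2 in untreated replicates 1 and 2 and 2.10 and 2.95 in YM155 replicates 1 and 2. For GAPDH the same ratio was 0.042 and 0.043 log2 in the untreated arrays and 0.033 and 0.21 in the YM155 arrays. In both controls the YM155 arrays differed more than the untreated ones did. Of 7 squamous markers listed, the 4 with a probe set of 1 symbol, KRT5, KRT14, DSG3 and SFN, had means of 7.88 to 12.8 log2, and their summed intensity was 7306 and 9222 without YM155 and 12264 and 12600 with it. Most of that sum is SFN, which read 12.25 and 12.74 log2 without YM155 and 13.15 and 13.19 with it. The markers of leukocytes, endothelium, glandular epithelium and fibroblasts had means of 2.09 to 4.29 log2, except for COL1A1 at 6.16, where the filter on dim signal lay at 3.32. The part of these values in the members' differences was not tested.

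**Figure D3:**
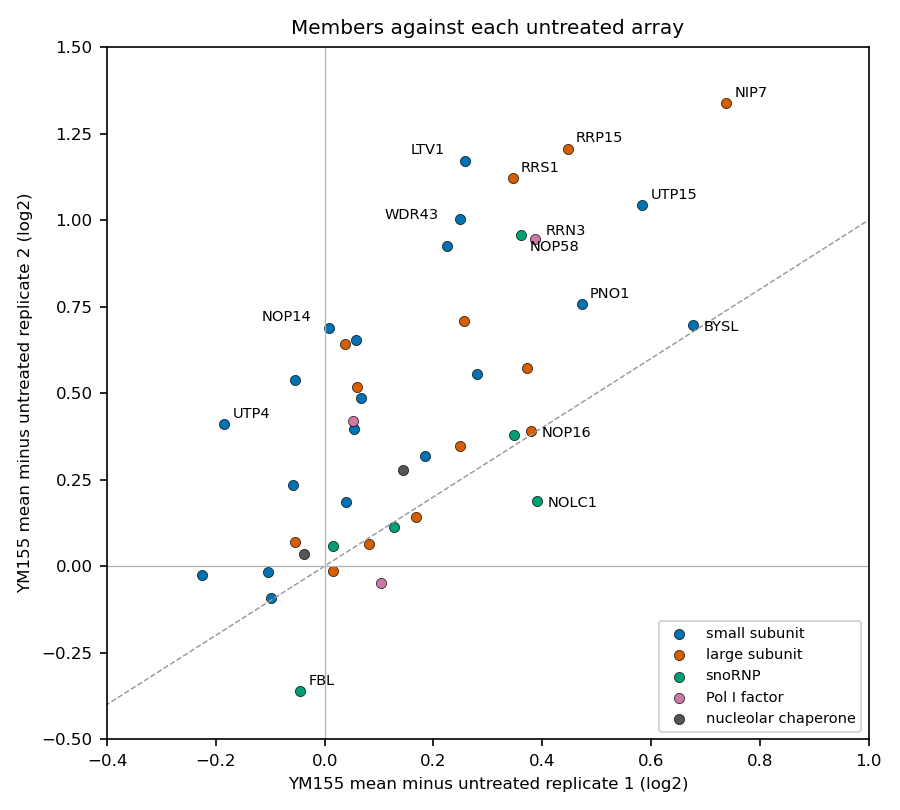
Each point is a member, placed by the YM155 mean minus untreated replicate 1 (x, log2) and minus untreated replicate 2 (y, log2), with a dashed line of equal values; colours give the roles. Most points lie above the line; BYSL and NOP16 lie close to it, and NOLC1 and FBL below it.

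Among the small-subunit genes, 16 of 19 had positive differences, with a median of 0.28 log2. At an unadjusted p under 0.05 by limma, 3 were higher (5.23% of all genes tested). In 10 both YM155 arrays lay above both untreated arrays (19.3% of all genes tested), and in 2 below (25.6%). UTP15 belongs to the UTP-A group, which joins the SSU processome to the nascent transcript. It read 6.40 and 5.94 log2 in untreated replicates 1 and 2 and 6.92 and 7.04 in the YM155 arrays. Both YM155 arrays were above both untreated arrays, and the difference was 0.81 ± 0.20 (SE; limma adjusted p = 0.254), 0.58 from untreated replicate 1 and 1.04 from replicate 2. LTV1, a late factor that leaves the small subunit in the cytoplasm, read 8.34 and 7.43 log2 in untreated replicates 1 and 2 and 8.65 and 8.56 in the YM155 arrays. The groups did not overlap, but untreated replicate 2 was far below the other 3 arrays, and the difference of 0.72 ± 0.32 (SE; limma adjusted p = 0.457) was 0.26 from untreated replicate 1 and 1.17 from replicate 2. BYSL, the human Enp1, stays with the small-subunit precursor until late in its maturation. It read 7.94 and 7.92 log2 in untreated replicates 1 and 2 and 8.69 and 8.56 in the YM155 arrays. The untreated arrays were almost equal here, so that the difference of 0.69 ± 0.13 (SE; limma adjusted p = 0.206) was nearly the same from either: 0.68 from untreated replicate 1 and 0.70 from replicate 2.

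WDR43, also of UTP-A, read 8.45 and 7.70 log2 in untreated replicates 1 and 2 and 8.60 and 8.80 in the YM155 arrays, which gave 0.63 ± 0.28 (SE; limma adjusted p = 0.457); it stood 0.25 above untreated replicate 1, and untreated replicate 2 was far below the other 3 arrays. PNO1, which holds the 18S precursor's end together with the nuclease NOB1, read 9.16 and 8.87 log2 in untreated replicates 1 and 2 and 9.70 and 9.57 in the YM155 arrays. No array of one group reached the other, and the difference was 0.62 ± 0.16 (SE; limma adjusted p = 0.27), 0.47 from untreated replicate 1 and 0.76 from replicate 2. Of the further members, RRP12, an export factor, stood at 0.58 ± 0.26 with no overlap (0.23 from untreated replicate 1 and 0.93 from replicate 2), and UTP20, a long scaffold protein of the processome, at 0.42 ± 0.17 with no overlap. Smaller positive differences belonged to the 18S acetyltransferase gene NAT10 (0.36), NOP14 (0.35), HEATR1 of UTP-A (0.28), the U3 snoRNP partners IMP3 (0.25) and IMP4 (0.088), the GTPase-like late factor gene TSR1 (0.24), WDR3 of the UTP-B group (0.22), UTP4 of UTP-A (0.11) and the U3-specific protein gene RRP9 (0.11). Measured from untreated replicate 1, NAT10 was 0.058, NOP14 0.0075, HEATR1 0.068 and WDR3 0.054, and TSR1 (−0.054), IMP4 (−0.058) and UTP4 (−0.18) were negative. TSR1 was also 0.096 without YM155 replicate 1 and 0.39 without YM155 replicate 2.

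The 3 small-subunit genes with negative differences were close to 0. NOB1, the nuclease that makes the 3′ end of 18S RNA and acts beside PNO1, read 9.93 and 9.73 log2 in untreated replicates 1 and 2 and 9.76 and 9.65 in the YM155 arrays. Its groups overlapped, and the difference was −0.13 ± 0.14 (SE; limma adjusted p = 0.768), −0.23 from untreated replicate 1 and −0.027 from replicate 2. WDR75 of UTP-A read 8.01 and 8.01 log2 in untreated replicates 1 and 2 and 7.91 and 7.92 in the YM155 arrays. Its 4 arrays were nearly equal within each group and did not overlap, at −0.096 ± 0.12 (SE; limma adjusted p = 0.8), opposite in sign to UTP15 and WDR43 of the same group. PWP2 of UTP-B read 8.79 and 8.71 log2 in untreated replicates 1 and 2 and 8.69 and 8.69 in the YM155 arrays, giving −0.061 ± 0.12 (SE; limma adjusted p = 0.891). Both YM155 arrays lay just below both untreated arrays, and its 2 dimmer probe sets had positive differences.

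All 13 measured large-subunit genes had differences above 0, with a median of 0.34 log2. At an unadjusted p under 0.05 by limma, 4 were higher (5.23% of all genes tested). In 10 both YM155 arrays lay above both untreated arrays (19.3% of all genes tested). NIP7, a conserved protein of the precursor of the large subunit, read 8.52 and 7.92 log2 in untreated replicates 1 and 2 and 9.21 and 9.31 in the YM155 arrays. Both YM155 arrays exceeded both untreated arrays, and the difference was 1.04 ± 0.23 (SE; limma adjusted p = 0.24), 0.74 from untreated replicate 1 and 1.34 from replicate 2. A further NIP7 probe set gave 0.76. RRP15 read 9.90 and 9.14 log2 in untreated replicates 1 and 2 and 10.30 and 10.38 in the YM155 arrays, and its 2 YM155 arrays were alike while untreated replicate 2 lay far below untreated replicate 1. Its difference was 0.83 ± 0.28 (SE; limma adjusted p = 0.346), 0.45 from untreated replicate 1 and 1.21 from replicate 2. RRS1, which with RPF2 brings the 5S particle into the large subunit, read 10.05 and 9.27 log2 in untreated replicates 1 and 2 and 10.37 and 10.42 in the YM155 arrays, giving 0.73 ± 0.28 (SE; limma adjusted p = 0.397), 0.35 from untreated replicate 1 and 1.12 from replicate 2. Its partner RPF2 stood at 0.072 ± 0.12.

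NOP2, a methyltransferase of 28S RNA, read 8.25 and 7.80 log2 in untreated replicates 1 and 2 and 8.51 and 8.51 in the YM155 arrays. The YM155 arrays were alike and above both untreated arrays, and the difference was 0.48 ± 0.19 (SE; limma adjusted p = 0.408), 0.26 from untreated replicate 1 and 0.71 from replicate 2. RRP1B, a nucleolar partner of protein phosphatase 1, read 8.40 and 8.20 log2 in untreated replicates 1 and 2 and 8.59 and 8.95 in the YM155 arrays. The groups did not overlap, with a difference of 0.47 ± 0.18 (SE; limma adjusted p = 0.392), which was 0.30 without YM155 replicate 2. Its dimmer probe set had the opposite sign, −0.29. NOP16 stood at 0.39 ± 0.13, with untreated arrays at 11.45 and 11.44 log2 and YM155 arrays at 11.78 and 11.88. The others were PES1, which forms the PeBoW complex with BOP1 and WDR12 (0.34), the Ki-67 partner gene NIFK (0.30), MRTO4, a placeholder for the ribosomal stalk (0.29), the GTPase gene GNL2 (0.15), RPF2 (0.072), WDR12 (0.0081) and BRIX1 (0.00036). PES1 and WDR12 belong to 1 complex; PES1 stood only 0.038 above untreated replicate 1. MRTO4 was 0.060 from untreated replicate 1 and 0.13 without YM155 replicate 1. BRIX1 and WDR12 changed sign when single arrays were left out, and their SE was 0.12 and 0.13 log2.

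Of the 6 snoRNP genes measured, 5 had positive differences, with a median of 0.20 log2. At an unadjusted p under 0.05 by limma, 2 were higher (5.23% of all genes tested). In 4 both YM155 arrays lay above both untreated arrays (19.3% of all genes tested). NOP58, a core protein of box C/D snoRNPs, read 10.46 and 9.86 log2 in untreated replicates 1 and 2 and 10.75 and 10.88 in the YM155 arrays. The YM155 arrays were above both untreated arrays, at 0.66 ± 0.23 (SE; limma adjusted p = 0.362), 0.36 from untreated replicate 1 and 0.96 from replicate 2. FBL, the methyltransferase of the same particle, read 11.07 and 11.39 log2 in untreated replicates 1 and 2 and 11.08 and 10.97 in the YM155 arrays. Here untreated replicate 2 was the highest array, the groups overlapped, and the difference was −0.20 ± 0.16 (SE; limma adjusted p = 0.671), −0.045 from untreated replicate 1 and −0.36 from replicate 2. GAR1 of the box H/ACA particle read 8.31 and 8.28 log2 in untreated replicates 1 and 2 and 8.72 and 8.60 in the YM155 arrays. The untreated arrays were nearly equal and the YM155 arrays above both, at 0.36 ± 0.13 (SE; limma adjusted p = 0.357). The other H/ACA proteins, NOP10 (0.12) and NHP2 (0.037), stood closer to 0. NOLC1, a chaperone of both kinds of snoRNP, read 10.63 and 10.83 log2 in untreated replicates 1 and 2 and 10.96 and 11.08 in the YM155 arrays, with the YM155 arrays higher by 0.29 ± 0.14 (SE; limma adjusted p = 0.498), 0.39 from untreated replicate 1 and 0.19 from replicate 2. Its dimmer probe sets gave 0.20 and 0.024, with overlap.

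The Pol I factor genes had positive differences of unequal size. RRN3, the human TIF-IA, makes RNA polymerase I competent to start and is a target of growth signalling. It read 7.42 and 6.86 log2 in untreated replicates 1 and 2 and 7.84 and 7.77 in the YM155 arrays. Both YM155 arrays were above both untreated arrays, and the difference was 0.67 ± 0.22 (SE; limma adjusted p = 0.343), 0.39 from untreated replicate 1 and 0.95 from replicate 2. UBTF, the upstream binding factor that keeps ribosomal DNA open, read 6.86 and 6.49 log2 in untreated replicates 1 and 2 and 7.05 and 6.78 in the YM155 arrays. The groups overlapped, at 0.24 ± 0.19 (SE; limma adjusted p = 0.676), and 0.10 without YM155 replicate 1. Of its dimmer probe sets, 225982_at gave 0.64 with no overlap, and the other 3 gave 0.17, −0.077 and 0.12. TCOF1, which encodes treacle, a partner of Pol I in the nucleolus, read 8.32 and 8.47 log2 in untreated replicates 1 and 2 and 8.50 and 8.35 in the YM155 arrays. Its groups overlapped, and the difference was 0.027 ± 0.14 (SE; limma adjusted p = 0.965), with 0.26 in the next probe set, whose arrays did not overlap. The sign of the brightest probe set changed when single arrays were left out.

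The nucleolar chaperone genes NCL and NPM1 encode nucleolin and nucleophosmin, abundant proteins that help assemble both subunits. NCL read 11.28 and 11.15 log2 in untreated replicates 1 and 2 and 11.41 and 11.44 in the YM155 arrays. Both YM155 arrays were above both untreated arrays, at 0.21 ± 0.13 (SE; limma adjusted p = 0.573). NPM1 read 12.85 and 12.78 log2 in untreated replicates 1 and 2 and 12.81 and 12.82 in the YM155 arrays, with all 4 arrays nearly equal, at −0.0017 ± 0.12 (SE; limma adjusted p = 0.999), a value whose sign changed when single arrays were left out. Its other probe sets gave −0.19 and 0.013; NPM1 has many pseudogenes, and a suffix of _x_at or _s_at marks probes that may read more than 1 transcript.

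Several members had a dimmer probe set with a larger difference than the one that represented the gene. The 43 genes had 79 probe sets above the filter, 69 with positive differences; of 36 dimmer probe sets, 15 had a larger difference than the brightest of the gene. These were chosen after their values were seen. LTV1's 239212_at read 4.61 and 4.74 log2 in untreated replicates 1 and 2 and 6.14 and 6.02 in the YM155 arrays. Both YM155 arrays stood above both untreated arrays, and the difference was 1.41 ± 0.14 (SE; limma adjusted p = 0.223 over all probe sets), 1.47 from untreated replicate 1 and 1.34 from replicate 2. The untreated values of 239212_at lie near those of the markers of other cell types (up to 4.29 log2 except for COL1A1), so the size of its difference is uncertain. The brighter probe set of LTV1 depended far more on the untreated array. PNO1's 242905_at read 4.60 and 4.22 log2 in untreated replicates 1 and 2 and 5.30 and 5.63 in the YM155 arrays (1.05 ± 0.21). HEATR1's 232414_at read 3.86 and 3.73 log2 in untreated replicates 1 and 2 and 5.11 and 4.57 in the YM155 arrays; its untreated values lie in the range of the markers of other cell types (up to 4.29 log2), as does that of PNO1's in untreated replicate 2, so a size of difference is not given for HEATR1 and is uncertain for PNO1. TSR1's 239042_at gave 0.68, MRTO4's 235783_at 0.62 and RRP15's 214764_at 0.94, each with no overlap. In HEATR1, NOP16, NPM1, PWP2, RRP1B and UBTF the probe sets went both ways. When the probe sets of each gene were averaged, RRP1B was 0.090 and NOP16 0.18, and neither kept its unadjusted p under 0.05 by limma. In that fit LTV1, RRP12, RRS1 and NOP2 came under 0.05 and were higher. The share over all genes in it is not given here. RRP12 was 0.34, NOLC1 0.17 and MRTO4 0.46. Without _x_at or _s_at probe sets, 34 of the 43 genes were left, and NIP7 and RRN3 were among those that dropped out. PNO1 was then 1.05, read from 242905_at, whose size of difference is uncertain. TSR1 was 0.68, UBTF 0.64, MRTO4 0.62 and HEATR1 0.16. Which part of a transcript each probe set reads was not analysed here.

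The order of the roles depended on the untreated array used. From both untreated arrays the medians were 0.34 log2 for large-subunit, 0.28 for small-subunit, 0.24 for Pol I factor and 0.20 for snoRNP genes, each within the range that single members of the other 3 roles span. From untreated replicate 1 they were 0.25 for large-subunit, 0.24 for snoRNP, 0.10 for Pol I factor and 0.058 for small-subunit genes. From untreated replicate 2 they were 0.54 for small-subunit, 0.52 for large-subunit, 0.42 for Pol I factor and 0.15 for snoRNP genes. The small-subunit median thus moved most with the reference and the snoRNP median least. The median gap of the untreated arrays (replicate 2 minus 1) was −0.34 at small-subunit, −0.20 at large-subunit, −0.37 at Pol I factor and −0.0085 at snoRNP genes. That gap was widest at Pol I factor genes, so the order of the gaps was not that of the moves. For all genes tested, the medians from both untreated arrays, replicate 1 and replicate 2 were −0.015, −0.050 and 0.0075. No difference between roles was tested.

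**Figure D4:**
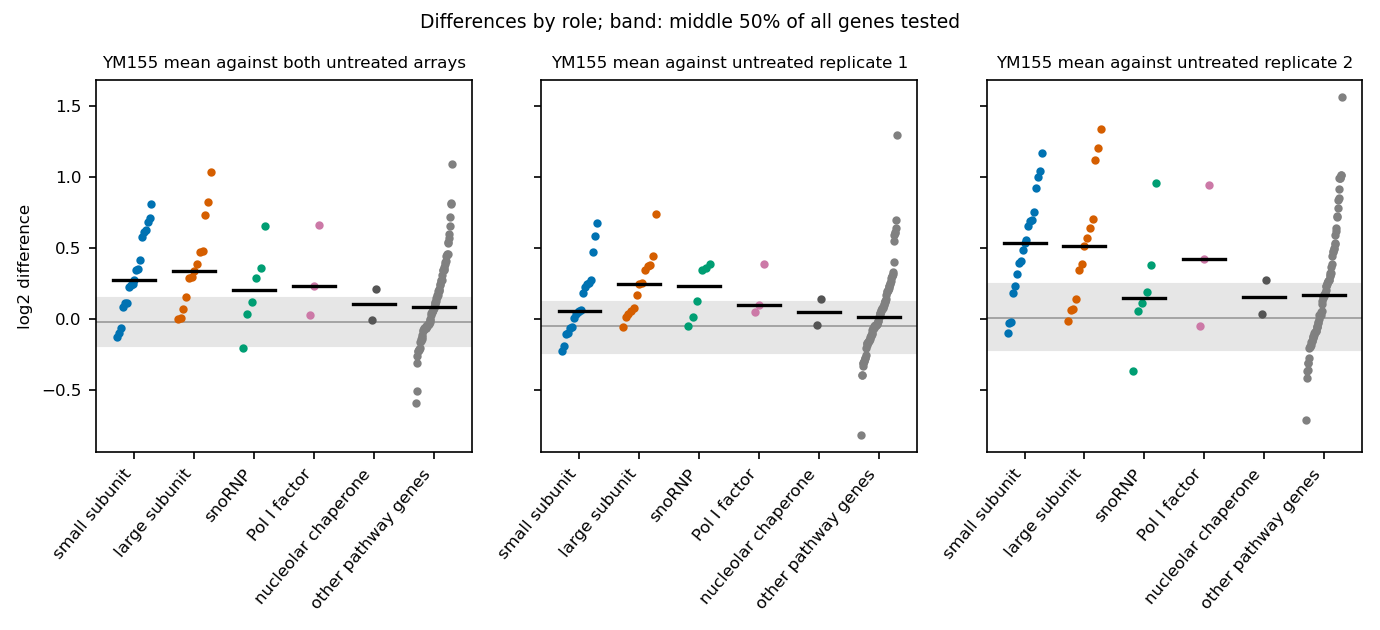
Log2 differences of single genes by role (points) with their medians (bars), for the YM155 mean against both untreated arrays, untreated replicate 1 and untreated replicate 2; the band spans the middle 50% of all genes tested and the line is their median. Small-subunit genes have a median of 0.058 in the middle panel and 0.54 in the right one, whereas snoRNP genes have 0.24 and 0.15.

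The 80 other genes of the pathway had a smaller median. Of these further assembly, snoRNP and Pol I genes, all of which were tested, 48 had positive (47.1% of all genes tested) and 32 negative differences, with a median of 0.084 log2. At an unadjusted p under 0.05, 8 were higher (5.23% of all genes) and 2 lower (7.48%), and 0 passed over all genes in either direction. Without untreated replicate 1, 11 were called higher (4.3% of all genes) and 0 lower (3.71%), and 25 were higher at an unadjusted p under 0.05 (17%). That last count was 2 without YM155 replicate 1 (1.89%) and 1 without YM155 replicate 2 (1.3%). The median was 0.17 without untreated replicate 1 and 0.018 without untreated replicate 2. In 27 of 80 the YM155 arrays lay above both untreated arrays (19.3% of all genes tested) and in 13 below (25.6%). By role their medians were 0.053 for 32 small-subunit, 0.099 for 32 large-subunit, 0.081 for 10 snoRNP and 0.10 for 6 Pol I genes. The largest positive differences were those of UTP14A of the SSU processome (1.09 ± 0.33), NAF1, an assembly factor of H/ACA particles (0.82 ± 0.17), and TAF1D, a subunit of the Pol I selectivity factor (0.81 ± 0.34). The largest negative ones were those of WDR74 of the large subunit (−0.59 ± 0.19), BAZ2A, a silencer of ribosomal DNA (−0.51 ± 0.18), and BUD23, an 18S methyltransferase (−0.31 ± 0.19). With the probe sets of a gene averaged, WDR74 was −0.32 and BAZ2A −0.40, and WDR74 was −0.27 without _x_at or _s_at probe sets, so the order rests on the probe set that stood for the gene. By limma the adjusted p of these 6 genes ran from 0.232 (NAF1) to 0.58 (BUD23). NAF1's _x_at probe set read 4.67 and 4.32 log2 in untreated replicates 1 and 2, and 5.28 and 5.34 with YM155. Its untreated values lie near those of the markers of other cell types (up to 4.29 log2 except for COL1A1), so the size of its difference is uncertain. From untreated replicates 1 and 2, UTP14A stood at 0.62 and 1.56, NAF1 at 0.64 and 0.99, TAF1D at 1.29 and 0.32, WDR74 at −0.81 and −0.36, BAZ2A at −0.31 and −0.70 and BUD23 at −0.20 and −0.41. An E-box stood in the promoter of 15 of the 70 of these genes with a promoter in the table (21.4%).

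The differences were also set beside the E-box. The 18 measured members with one had a median of 0.34 log2, with 16 positive, and the 18 with a promoter but no E-box 0.24, with 15 positive. From untreated replicate 1 the medians were 0.094 and 0.061, and from untreated replicate 2 0.54 and 0.37. The 7 measured members with no promoter in the table, among them RRS1 and NOP58, had a median of 0.47. No difference between these sets was tested.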

How the data were processed

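Each array's deposited intensity values, 1 for each probe set, came from robust multi-array averaging, RMA, as the submitters' processing notes name it, with version and settings not given in the sources used here. The intensity values ran from 2.42 to 15214, a linear scale, so log2 was taken. The table held 54675 probe sets, of which 62 controls were left out; 41091 had 1 gene symbol in the platform annotation, 1801 several and 11721 none, and no symbol needed an update through RefSeq. Probe sets whose mean lay below the 40th percentile (3.32 log2) were left out, and the probe set with the highest mean stood for its gene.

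YM155 was compared with untreated by limma 3.58.1 under R 4.3.3, two-sided, by lmFit then eBayes with no term besides group (2 residual and 2.69 prior degrees of freedom), adjusted by Benjamini-Hochberg over 14043 genes at a threshold of 0.05. Alternatives for the other pathway genes were chosen after seeing the data. With 2 arrays per group, their number limits the precision. Values in every array are given for the first 5 small-subunit, 5 large-subunit and 3 snoRNP genes by absolute difference, all Pol I factor and chaperone genes, and every gene with a negative difference; of the other pathway genes, the 3 highest and 3 lowest are named. Other genes, and probe sets besides the brightest, were named after their values were seen. The members, roles and lists were chosen with earlier results of these data known. Promoter sequences came from RefSeq (GRCh38.p14).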

Additional observations from a re-analysis of the deposited data

How the results depend on the processing

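The direction of the members' median held under all alternatives run, and the calls of members stayed at 0 except when untreated replicate 1 was left out. Leaving out each array in turn, members called higher ran from 0 to 10, with 0 called lower, and those with an unadjusted p under 0.05 from 1 to 25 higher and from 0 to 1 lower. Members without overlap ran from 28 to 37 higher (26.9% to 42.3% of all genes) and from 2 to 6 lower (34.3% to 47.4%); overlap is rarer among 3 arrays than among 4, so these are not to be set beside the counts over 4. The median ran from 0.13 to 0.41 log2 for all members, 0.058 to 0.54 for small-subunit, 0.25 to 0.52 for large-subunit, 0.15 to 0.24 for snoRNP and 0.10 to 0.42 for Pol I factor genes. With probe sets tested one by one, 79 probe sets are counted in place of 43 genes. Of the 79, 19 had an unadjusted p under 0.05 and were higher, and 42 lay without overlap higher and 5 lower. The shares over all probe sets are not given here, so these counts are not to be read against those of genes. The snoRNP median was 0.15 when the probe sets of each gene were averaged, 0.33 without _x_at or _s_at probe sets (4 genes left) and 0.16 with probe sets one by one. Median centring left 1 member without overlap lower. Some values near 0 changed sign: PWP2 was 0.067 when its probe sets were averaged, WDR12 −0.0016 after a further quantile normalization and NPM1 0.0066 after median centring. Over the arrays left out, BRIX1 ran from −0.014 to 0.015, IMP4 from −0.058 to 0.23, NPM1 from −0.037 to 0.034, TCOF1 from −0.048 to 0.10, TSR1 from −0.054 to 0.54, UTP4 from −0.18 to 0.41 and WDR12 from −0.054 to 0.070. The cause of these changes was not tested. In alternatives chosen after seeing the data, the other pathway genes' median stayed positive, from 0.018 to 0.17 over the arrays left out. With the replicate number of the titles as a block, 0 members were called and 7 had an unadjusted p under 0.05 and were higher. The share over all genes in that fit is not given here. Deviations of same-numbered arrays correlated at 0.00036 across genes, which are not independent. With 1 pair of arrays in each group, this value cannot show whether same-numbered arrays belong together. The labels do not state a pairing, and the main fit holds no replicate term.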
